A study of Mus musculus with 20 samples.

Results

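Circadian clock output genes are the genes through which the molecular clock reaches the rest of the cell. A fixed set of 9 was followed here, Dbp, Tef, Hlf, Nfil3, Bhlhe40, Bhlhe41, Ciart, Wee1 and Usp2, chosen by name and matched to the gene identifiers of the count table through the GENCODE M21 annotation (GRCm38, the assembly also called mm10). All 9 were found among 55401 gene identifiers, and all 9 were among the 14542 genes that had enough counts to be tested. RNA was sequenced from livers of C57BL/6 mice with the genotype label WT, 10 libraries from animals on standard laboratory chow (chow 1 to 10) and 10 from animals on a high-fat diet (HFD 1 to 10). The HFD held 60% fat, 20% carbohydrate and 20% protein and was given for 12 weeks. Age is not given in the sources used here, and neither is the time of day at which the livers were collected. The study's text speaks of 3 groups on the HFD, but all 10 HFD samples carry the same labels and were taken as 1 group. Whether the libraries come from different mice is not stated, so p-values reflect only how far these libraries spread, which may be technical.

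In the clock of mouse cells, Arntl (BMAL1) together with Clock or Npas2 binds E-box elements and activates the Per and Cry genes, whose proteins shut that activity down again, while the Nr1d1 and Nr1d2 repressors and the Ror activators set the rhythm of Arntl. Dbp, Tef and Hlf encode the PAR bZIP factors, activators that bind D-box elements in genes of liver metabolism, and Nfil3 (E4BP4) is a repressor that binds the same elements. In mouse liver the transcripts of the PAR bZIP genes and of Nfil3 are known to peak at opposite times of day. Bhlhe40 and Bhlhe41 (DEC1 and DEC2) are E-box repressors, Ciart (CHRONO) is a repressor of the BMAL1 complex, Wee1 encodes a kinase that holds cells before mitosis, and Usp2 encodes a ubiquitin-specific protease with a strong daily rhythm in many tissues.

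E-boxes stand in front of several of these genes, and the sequences are shown because the E-box is the element that Arntl and its partners bind. RefSeq promoter sequences (GRCm38.p6) were at hand for 7 of the 9 genes, all but Bhlhe40 and Wee1, in 8 windows because Tef has alternative starts. The 250 bases upstream of each start were searched on both strands. The E-box letters CACGTG, which read the same on both strands, were found in 4 of the 8 windows, those of Tef (at both starts), Bhlhe41 and Ciart, against 6.02% of all 32851 promoter windows. Ciart held 3 copies, which 20 of all windows (0.0609%) matched or exceeded. No window of the 8 held the D-box letters TTATGTAA or TTACGTAA (0.931% of all windows did) or a RORE (0.332% of all windows did), which says only that these letters are not in those windows. The stretches around the E-boxes, read 5′ to 3′ along the gene with the E-box in capitals, are Ciart (chr3:95882247-95882364, minus strand, E-boxes starting 116, 58 and 44 bases upstream of the start), Bhlhe41 (chr6:145865548-145865593, minus strand, 153 bases upstream) and the downstream start of Tef (chr15:81811256-81811301, plus strand, 138 bases upstream).
Ciart: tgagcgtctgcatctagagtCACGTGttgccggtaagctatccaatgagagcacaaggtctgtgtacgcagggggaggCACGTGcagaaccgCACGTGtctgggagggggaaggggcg
Bhlhe41: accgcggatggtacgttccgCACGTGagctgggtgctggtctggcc
Tef: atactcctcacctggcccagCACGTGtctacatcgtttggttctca

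HFD 1 and HFD 2 stand apart from the other libraries, and several results below, though not all, are given with and without them. In HFD 1 mitochondrial transcripts were 75.6% of all counts (95% Wilson interval 75.56% to 75.60%). In HFD 2 they were 94.4% (94.43% to 94.44%), and elsewhere they were 1.34% to 3.10%. Library totals were 34727227 to 49065587 counts in chow and 20111896 to 90033879 in HFD, but without mitochondrial and ribosomal RNA only 2237670 counts remained in HFD 1 and 2860976 in HFD 2. Nuclear ribosomal RNA was 20.4% of counts in chow 9 and 13.3% in HFD 1, and at most 0.807% elsewhere. Chow 9 had the lowest chow total and kept 26735737 counts without both kinds of RNA. Intervals and floors here cover counting error only. Summed hepatocyte markers (Alb, Ttr, Apoa1, Serpina1c and Tat) were high in all libraries, at 64680 to 105368 CPM (counts scaled to a library of 1000000, with library sizes scaled by TMM) in chow and 16197 to 76715 CPM in HFD. In bulk tissue, fewer cells of a type and less RNA per cell cannot be told apart.

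The clock output genes differed widely among the HFD livers. In HFD 6, 8, 9 and 10 the activators Dbp and Tef and the genes Bhlhe41, Ciart, Wee1 and Usp2 were all below every chow library, and the repressor Nfil3 was above every chow library. HFD 3, 4, 5 and 7 were close to chow for most of the genes. Of the 36 values that the 9 genes take in HFD 6, 8, 9 and 10, 28 lay below and 6 above the chow range, while of the 36 values in HFD 3, 4, 5 and 7, 11 lay below and 2 above it. Over all 14542 genes tested, 24.1% of the values in HFD 6, 8, 9 and 10 lay below the chow range and 23.7% above it, against 17.6% and 17.2% in HFD 3, 4, 5 and 7. Summed hepatocyte markers also differed between these libraries. They were at 34450, 44009, 40833 and 61907 CPM in HFD 6, 8, 9 and 10, all below the chow range. In HFD 3, 4, 5 and 7 they were at 67581 to 76715 CPM, inside it. The sums were lowest in HFD 1 and HFD 2, at 19578 and 16197 CPM. There Dbp was at 41.0 and 41.9 CPM, and Tef, at 125 and 119 CPM, was inside the chow range. The part of hepatocyte content in the values of the 9 genes was not tested. HFD 6, 8, 9 and 10 were picked out by the values themselves, so the split is a description and was not tested.

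**Figure D1:**
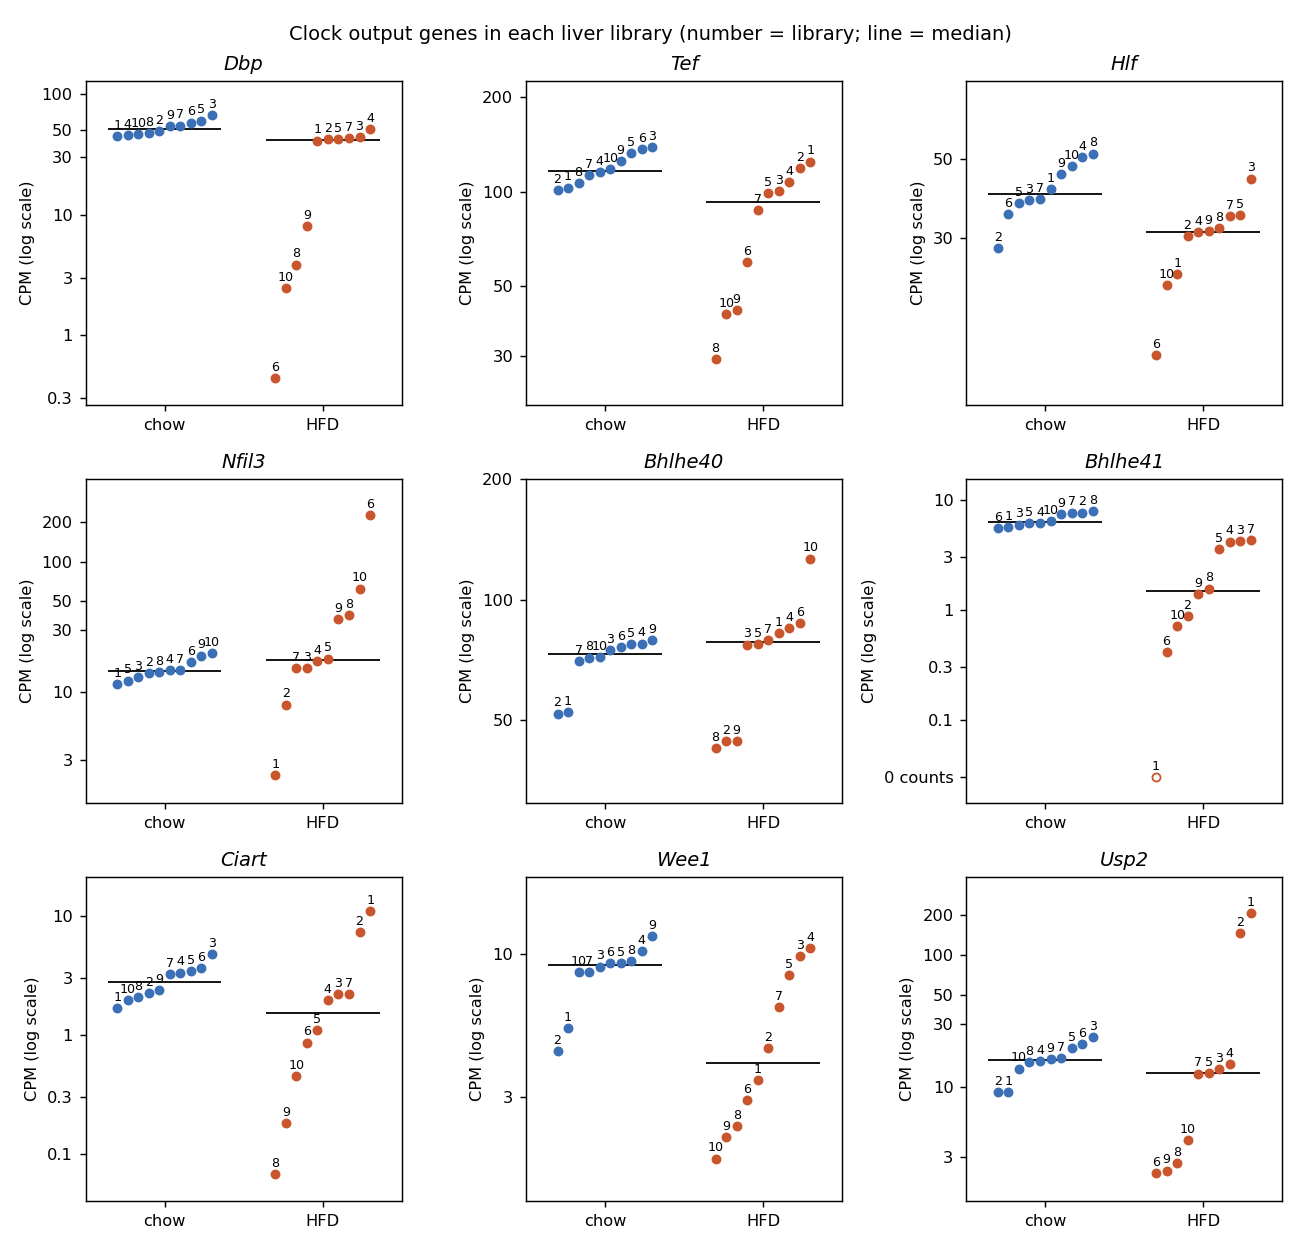
CPM of the 9 genes (log scale) in each of the 10 chow (blue) and 10 HFD (red) libraries; each point is a library with its number, ordered by level within its diet, the line is the median, and the open point marks 0 counts. Dbp runs from 44.5 to 66.3 CPM in chow and from 0.438 to 51.1 CPM in HFD, with HFD 6, 8, 9 and 10 lowest, and these 4 libraries are the highest for Nfil3.

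Across the diets, 3 of the 9 genes passed the test, Nfil3 upward and Bhlhe41 and Hlf downward (edgeR quasi-likelihood test, two-sided, adjusted p under 0.05 with Benjamini-Hochberg adjustment over all genes tested). Of all 14542 genes, 20.0% passed it, 13.0% upward and 7.05% downward. With 9 genes, counts of 1 upward and 2 downward are too small to set the group apart from that background. The median log2 change of the 9 genes was −0.47, against 0.02 over all genes tested. Without HFD 1 and HFD 2, 4 of the 9 passed, Nfil3 upward and Tef, Bhlhe41 and Ciart downward, against 28.2% of 14842 genes, with 17.9% upward and 10.4% downward. The calls shared by both fits are those of Nfil3 and Bhlhe41. Without HFD 6, 8, 9 and 10, Bhlhe41 was called lower and Usp2 higher, against 19.4% of 14790 genes (13.3% upward, 6.09% downward). These 4 libraries hold the lowest HFD values of Dbp, Tef, Wee1 and Usp2 and the highest of Nfil3, so leaving them out had to move the changes of these genes, upward for the first 4 and downward for Nfil3.

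**Figure D2:**
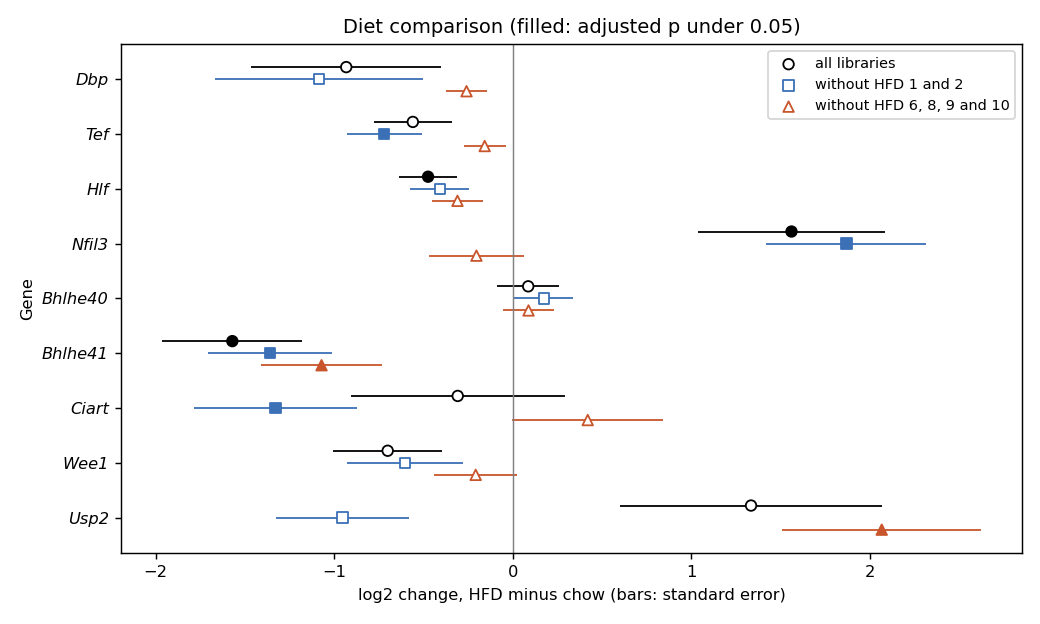
log2 change (HFD minus chow) of each gene with its standard error, fitted with all libraries (circles), without HFD 1 and 2 (squares) and without HFD 6, 8, 9 and 10 (triangles); filled symbols passed an adjusted p under 0.05. Bhlhe41 is filled in all 3 fits, and the change of Usp2 goes from 1.34 with all libraries to −0.95 without HFD 1 and 2.

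Dbp, the PAR bZIP factor with the widest range here (ENSMUSG00000059824, chromosome 7, 45705088 to 45710203, plus strand), was at 44.5 CPM in the lowest, 51.6 in the median and 66.3 in the highest chow library. In HFD the lowest, median and highest were 0.438, 41.4 and 51.1 CPM. The 4 lowest were HFD 6 at 0.438, HFD 10 at 2.45, HFD 8 at 3.84 and HFD 9 at 8.05 CPM, which is 0.849%, 4.74%, 7.43% and 15.6% of the chow median. HFD 6 held 32 counts of Dbp, where no chow library held fewer than 1696. The other 6 HFD libraries lay between 41.0 (HFD 1) and 51.1 CPM (HFD 4), and 9 of the 10 HFD libraries were below the lowest chow library, all but HFD 4. The means were 52.6 ± 7.19 CPM in chow and 27.7 ± 20.97 CPM in HFD (mean ± SD, n = 10 each). This difference did not pass the test, with a log2 change of −0.93 (SE 0.531, adjusted p = 0.228, edgeR). Sphk2 on the opposite strand overlaps the end of Dbp by 737 bases, and without a stated strand setting reads there cannot be assigned with certainty. Sphk2 itself averaged 29.6 ± 4.10 CPM on chow and 26.1 ± 9.46 CPM on HFD, with 23.4 CPM in HFD 6.

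Tef, the second PAR bZIP factor (ENSMUSG00000022389, chromosome 15, 81802421 to 81826863, plus strand), had a chow minimum, median and maximum of 101, 117 and 139 CPM. The HFD values were 29.4, 93.1 and 125 CPM in the same order. HFD 8 was lowest at 29.4 CPM, followed by HFD 10 at 40.8, HFD 9 at 42.1 and HFD 6 at 59.7 CPM. The 2 highest were HFD 1 at 125 and HFD 2 at 119 CPM, inside the chow range. Tef had a log2 change of −0.56 (SE 0.219, adjusted p = 0.0761, edgeR) with all libraries, and fell by 0.72 without HFD 1 and HFD 2 (SE 0.210, adjusted p = 0.0145, edgeR). In that fit the fall was 1.65-fold.

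Hlf, the third of the PAR bZIP factors (ENSMUSG00000003949, chromosome 11, 90336536 to 90390895, minus strand), varied least of the 3 among the HFD livers. It was at 28.01, 39.8 and 51.8 CPM in the lowest, median and highest chow library and at 14.0, 31.2 and 44.0 CPM in HFD. HFD 6, HFD 10 and HFD 1 were below the chow range at 14.0, 22.1 and 23.7 CPM, and the other 7 HFD libraries were inside it. HFD 8 and HFD 9, where Dbp was at most 8.05 CPM, held Hlf at 32.0 and 31.4 CPM. Hlf fell from 41.4 ± 7.45 to 29.8 ± 8.19 CPM, a log2 change of −0.47 (SE 0.160, adjusted p = 0.0404, edgeR). The call lay close to the threshold, while the change kept its size: with 1 library left out the log2 change lay between −0.55 and −0.39. Without HFD 1 the adjusted p was 0.0660, without HFD 2 0.0601, without HFD 8 0.0506 and without HFD 10 0.0683 (edgeR). The call was also lost without any 1 of the chow libraries other than chow 2 and chow 5, and over all 20 such refits the adjusted p lay between 0.0166 and 0.0719.

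Nfil3, the repressor at D-boxes (ENSMUSG00000056749, chromosome 13, 52967209 to 52981073, minus strand), was the 1 gene of the 9 called higher with all libraries. Chow libraries held 11.6, 14.5 and 19.8 CPM (lowest, median, highest) and HFD libraries 2.31, 17.6 and 228 CPM. HFD 6 was highest at 228 CPM, 15.8 times the chow median (1575%), and HFD 10, HFD 8 and HFD 9 followed at 62.0, 38.8 and 36.4 CPM. HFD 3, 4, 5 and 7, at 15.2 to 18.1 CPM, were inside the chow range, and HFD 1 and HFD 2, at 2.31 and 8.03 CPM from 8 and 46 counts, were below it. It averaged 15.04 ± 2.76 CPM on chow and 44.1 ± 67.0 CPM on HFD and rose by a log2 change of 1.56 (SE 0.524, adjusted p = 0.0390, edgeR). HFD 6 carried much of this: without it the log2 change was 0.68 (adjusted p = 0.176), while without HFD 1 and HFD 2 it was 1.87 (adjusted p = 0.00401). The call was also lost without HFD 10 (adjusted p = 0.0572) and with each chow library left out in turn. Nfil3 is made in immune cells as well as hepatocytes, so marker levels are given beside it. HFD 6 had the lowest summed level of the HFD libraries for 7 macrophage markers (449 CPM, against 757 to 1379 CPM in the other 9 and 239 to 431 CPM in chow), for 6 T and NK cell markers (1.00 CPM) and for 4 B cell markers (2.26 CPM), but its 4 neutrophil markers summed to 60.9 CPM, against 2.25 to 3.14 CPM in chow. Of the other libraries with high Nfil3, HFD 8 had the highest T and NK cell sum (22.1 CPM) and B cell sum (863 CPM), HFD 10 had the highest neutrophil sum (315 CPM), and HFD 9 had sums of 1192, 22.9, 4.71 and 6.44 CPM for macrophage, neutrophil, T and NK cell and B cell markers. The part of these cells in the Nfil3 values was not tested.

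Set side by side per length, the activators and the repressor changed places. Per kilobase of the gene length that the deposited tables imply, the summed level of Dbp, Tef and Hlf in chow ran from 33.4 to 45.5 CPM per kilobase, and Nfil3 from 5.71 to 9.77. The ratio of that sum to Nfil3 lay between 3.85 and 7.09 in all 10 chow libraries. In HFD 3, 4, 5 and 7 it was 4.50, 4.17, 3.56 and 4.09, inside the chow range except in HFD 5. In HFD 6, 8, 9 and 10 it was 0.0873, 0.513, 0.709 and 0.304, so that Nfil3 exceeded the 3 activators together in these 4 libraries and in no other. HFD 1 and HFD 2 lay at the other end, with 29.0 and 8.50. The make-up of the sum differed as well. Dbp made up 40.7% to 49.1% of it in chow and 1.49%, 13.1%, 21.1% and 8.79% in HFD 6, 8, 9 and 10, where Tef and Hlf made up the rest.

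**Figure D3:**
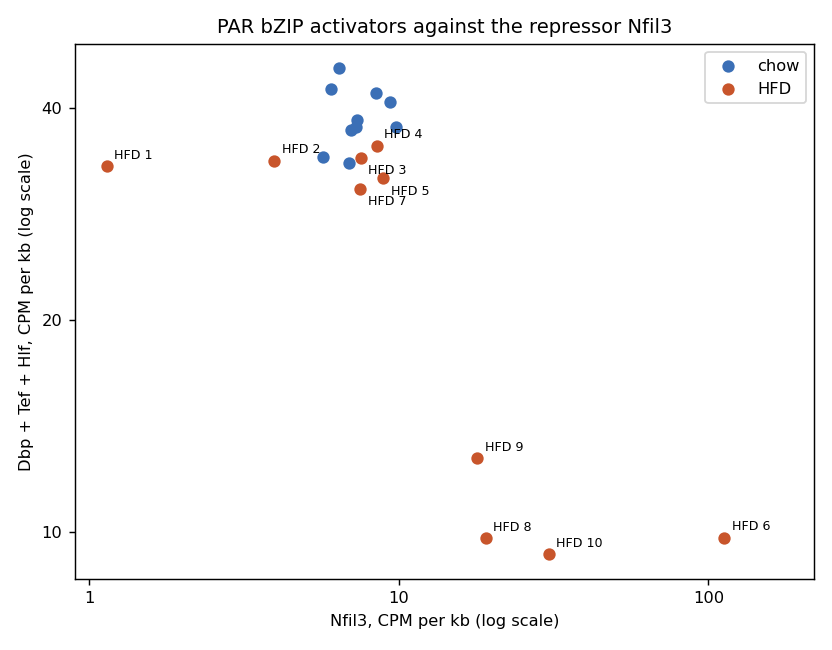
Summed level of Dbp, Tef and Hlf against the level of Nfil3, both in CPM per kilobase on log axes, for 10 chow (blue) and 10 HFD (red, numbered) libraries. HFD 6, 8, 9 and 10 sit at the lower right, with sums of 9.30 to 12.7 and Nfil3 at 17.9 to 113, apart from all chow libraries.

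Bhlhe41 (ENSMUSG00000030256, chromosome 6, 145858243 to 145865558, minus strand) was the one gene of the 9 whose diets did not overlap. Its chow libraries held 5.51, 6.31 and 7.84 CPM (lowest, median, highest) and its HFD libraries 0, 1.48 and 4.31 CPM. All 10 HFD libraries were below all 10 chow libraries, which held for 2.70% of all genes tested. None of the 9 genes had all HFD libraries above all chow libraries, as 2.39% of all genes did. Among the 8 HFD libraries other than HFD 1 and HFD 2, Bhlhe41 was again the 1 gene of the 9 below all chow libraries, against 3.34% of all genes. HFD 3, 4, 5 and 7 were the highest, at 4.22, 4.18, 3.56 and 4.31 CPM. HFD 8, 9, 10 and 6 were at 1.56, 1.39, 0.709 and 0.411 CPM. HFD 2 had 5 counts (0.873 CPM) and HFD 1 none, where a count of 0 allows up to 0.866 CPM (3 counts). Its mean fell from 6.65 ± 0.90 to 2.12 ± 1.74 CPM, a log2 change of −1.57 (SE 0.392, adjusted p = 0.00683, edgeR). The fall was 1.36 without HFD 1 and HFD 2 (adjusted p = 0.00641) and 1.07 without HFD 6, 8, 9 and 10 (adjusted p = 0.0346, edgeR). With library totals alone as the scale the call was lost (adjusted p = 0.153).

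Bhlhe40, its paralog (ENSMUSG00000030103, chromosome 6, 108660629 to 108666925, plus strand), showed no such shift. Chow ran from 51.8 over a median of 73.2 to 79.1 CPM, and HFD from 42.4 over 78.3 to 127 CPM. HFD 8, HFD 2 and HFD 9 were below the chow range at 42.4, 44.2 and 44.2 CPM, and HFD 1, 4, 6, 7 and 10 were above it. HFD 10 was highest at 127 CPM. The log2 change was 0.09 (SE 0.173, adjusted p = 0.762, edgeR), −0.030 without HFD 10, and negative on the deposited FPKM scale. HFD 10 also had the highest summed level of 4 neutrophil markers, 315 CPM against 2.25 to 3.14 CPM in chow and 14.5 to 200 CPM in the other HFD libraries; their part in the Bhlhe40 value was not tested. Since Bhlhe41 fell and Bhlhe40 did not pass the test, the ratio of Bhlhe40 to Bhlhe41 per kilobase, 9.65 to 19.7 in chow, was 26.1 to 303 in the 9 HFD libraries where it could be formed, and highest in HFD 6 (303) and HFD 10 (255).

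Ciart, the repressor with 3 E-boxes in its promoter window (ENSMUSG00000038550, chromosome 3, 95878503 to 95882251, minus strand), was lowly expressed, with 74 to 243 counts per chow library. Its lowest, median and highest chow values were 1.69, 2.79 and 4.79 CPM, and its HFD values 0.0683, 1.53 and 10.97 CPM. HFD 8, with 5 counts, was at 2.45% of the chow median, HFD 9 at 6.499%, HFD 10 at 16.3%, HFD 6 at 30.9% and HFD 5 at 39.3%. HFD 1 and HFD 2 went the other way, at 10.97 and 7.33 CPM from 38 and 42 counts. The log2 change was −0.31 with all libraries (SE 0.599, adjusted p = 0.758, edgeR), and Ciart fell by 1.33 without HFD 1 and HFD 2 (SE 0.459, adjusted p = 0.0357, edgeR). An antisense gene, C920021L13Rik, spans the whole of Ciart and had 11.2% as many counts over all libraries.

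Wee1 (ENSMUSG00000031016, chromosome 7, 110122046 to 110143286, plus strand) had chow values of 4.42, 9.09 and 11.6 CPM at the minimum, median and maximum, and HFD values of 1.79, 4.00 and 10.5 CPM. HFD 10, 9, 8 and 6 were lowest at 1.79, 2.15, 2.35 and 2.92 CPM, and HFD 1 was below the chow range as well, at 3.46 CPM from 12 counts. HFD 3 and HFD 4, at 9.81 and 10.5 CPM, were above the chow median. Its log2 change of −0.70 did not pass the test (SE 0.307, adjusted p = 0.111, edgeR). Summed markers of dividing cells (Mki67, Top2a, Ccnb1 and Cdk1) were at 1.84 to 7.17 CPM in chow and 0.577 to 11.4 CPM in HFD; their part in the Wee1 values was not tested.

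Usp2 (ENSMUSG00000032010, chromosome 9, 44067021 to 44095627, plus strand) was pulled in both directions. Chow libraries held 9.22, 16.1 and 24.0 CPM at the minimum, median and maximum. HFD 6, 9, 8 and 10 held 2.26, 2.35, 2.68 and 3.99 CPM, HFD 3, 4, 5 and 7 held 12.7 to 14.99 CPM, and HFD 1 and HFD 2 held 208 and 147 CPM. The last 2 are 12.9 and 9.11 times the chow median, from 719 and 840 counts. The log2 change was 1.34 with all libraries (SE 0.735, adjusted p = 0.211, edgeR) and −0.95 without HFD 1 and HFD 2 (SE 0.374, adjusted p = 0.0637, edgeR), and neither passed the test. Without HFD 6, 8, 9 and 10 Usp2 was called higher, with a log2 change of 2.07 (adjusted p = 0.0144, edgeR). That call rests on HFD 1 and HFD 2, since HFD 3, 4, 5 and 7 were all below the chow median. With library totals alone, a scale on which the mitochondrial counts of HFD 1 and HFD 2 weigh in full, the sign also turned (log2 change −0.46).

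**Figure D4:**
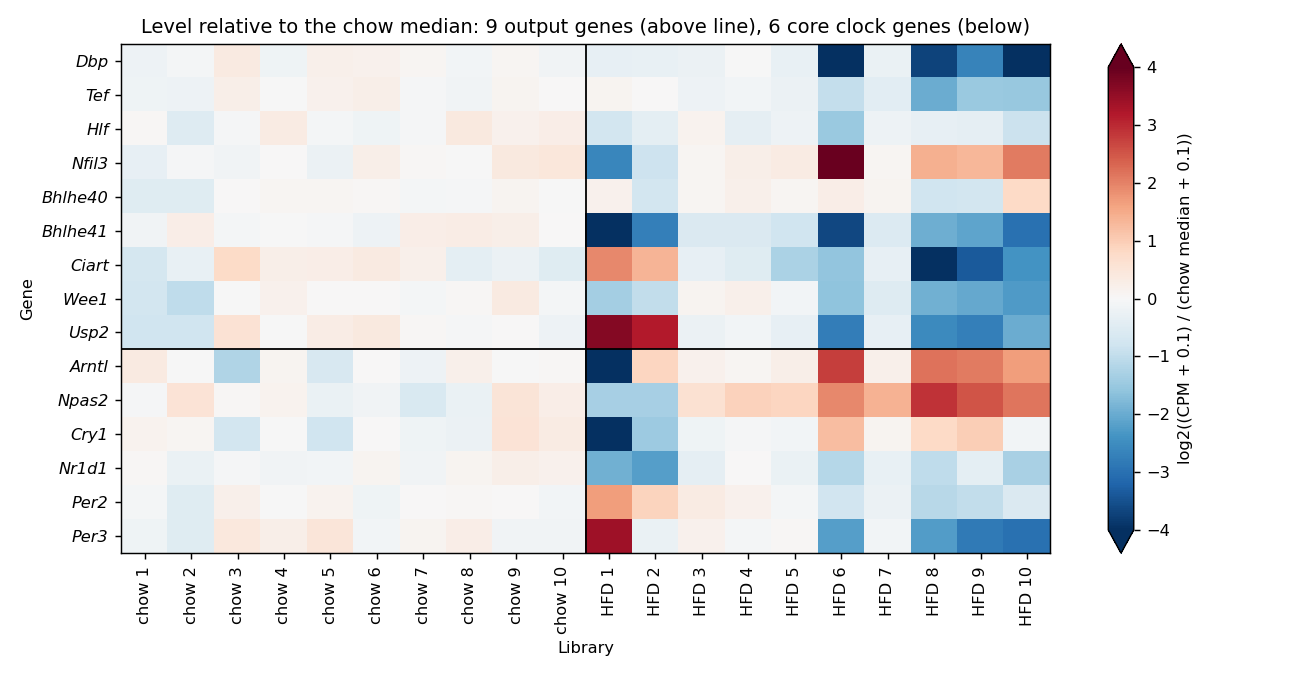
Level of the 9 output genes and 6 core clock genes in each of 20 libraries as log2((CPM + 0.1) / (chow median + 0.1)), blue below and red above the chow median, with colours capped at −4 and 4. HFD 6, 8, 9 and 10 are blue for Dbp, Tef, Bhlhe41, Ciart, Wee1, Usp2 and Per3 and red for Nfil3, Arntl and Npas2; HFD 1 and 2 are red for Usp2 and Ciart.

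Among the genes of the core clock, Arntl and Npas2 were above every chow library in HFD 6, 8, 9 and 10, as Nfil3 was. In other HFD libraries they departed from Nfil3. Arntl, at 1.08 to 3.40 CPM in chow, was at 18.7, 12.3, 11.6 and 8.71 CPM in HFD 6, 8, 9 and 10, at 2.78 to 3.15 CPM in HFD 3, 4, 5 and 7, and had 0 counts in HFD 1, but in HFD 2, where Nfil3 was below chow, it was at 4.89 CPM, above every chow library. Npas2 was above its highest chow level of 0.269 CPM in HFD 3, 4, 5 and 7 as well, at 0.281 to 0.554 CPM. In these libraries Nfil3 was inside the chow range. The chow values of Npas2 rest on only 4 to 12 counts per library, so small gaps to them are uncertain. Per3, a clock repressor, was at 4.22 to 8.32 CPM in chow and at 0.664 to 1.21 CPM in HFD 6, 8, 9 and 10. In HFD 3, 4, 5 and 7 it was at 5.41 to 6.68 CPM, inside the chow range. Of 12 tested genes of the core clock list, 2 were higher (Arntl and Npas2) and 2 lower (Cry2 and Nr1d1) in HFD. Of all genes tested, 13.0% were higher and 7.05% lower, and counts from 12 genes are too small to set the list apart. The median log2 change of the list was 0.29 with all libraries and −0.20 without HFD 1 and HFD 2. In that list Arntl rose by 1.47 on the log2 scale (adjusted p = 0.0187) and Npas2 by 2.16 (adjusted p = 0.00138, edgeR). Cry2 and Nr1d1 fell by 0.75 (adjusted p = 0.00407) and 0.73 (adjusted p = 0.0222, edgeR). The same genes were called without HFD 1 and HFD 2. Without HFD 6, 8, 9 and 10, Cry2 was called lower and Rora higher, against 6.09% and 13.3% of all genes. In that fit the log2 change was 0.22 for Arntl (adjusted p = 0.673), 1.06 for Npas2 (adjusted p = 0.0715) and −0.61 for Nr1d1 (adjusted p = 0.103, edgeR).

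A list of 11 other liver genes with a known daily rhythm had 1 gene higher and 3 lower in HFD, with a median log2 change of 0.18, where 13.0% of all genes tested were higher and 7.05% lower. Without HFD 1 and HFD 2, 3 were higher (Insig2 and Tspan4 besides Cdkn1a) and 3 lower, against 17.9% and 10.4% of all genes, and the median was close to 0 (−6.7e-05). Cdkn1a, which encodes the growth arrest protein p21, averaged 1.57 ± 0.415 CPM on chow and 14.2 ± 16.0 CPM on HFD (log2 change 3.19, adjusted p = 2.22e-05, edgeR), with no overlap of the diets. Upp2, a uridine phosphorylase, averaged 523 ± 57.3 CPM on chow and 246 ± 148 CPM on HFD (log2 change −1.09, adjusted p = 0.0252, edgeR), again without overlap. It was lowest in HFD 6, 9, 10 and 8 at 34.4, 86.9, 95.8 and 99.4 CPM. Of all genes tested, 2.39% had all HFD libraries above all chow libraries and 2.70% had them all below. The liver glycogen synthase Gys2 fell from 179 ± 22.03 to 114 ± 46.4 CPM (adjusted p = 0.0191), and Elovl3, a fatty acid elongase, from 269 ± 43.0 to 103 ± 70.7 CPM (adjusted p = 0.0165, edgeR). Without HFD 6, 8, 9 and 10, Cdkn1a was called higher and Elovl3 and Upp2 lower, against 13.3% and 6.09% of all genes. Gys2 was not called in that fit (log2 change −0.34, adjusted p = 0.140, edgeR).

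Genes known to need the PAR bZIP factors in mouse liver were not called with all libraries. None of the 6 tested (Alas1, Por, Nr1i3, Cyp2a5, Cyp2b10 and Cyp7a1) passed the edgeR test, 1 had an unadjusted p under 0.05, and DESeq2 called 2 lower and limma voom 1 lower. The count of 0 depended on HFD 6: without it 2 were called lower, as were 2 (Cyp2a5 and Cyp2b10) without HFD 6, 8, 9 and 10, and without HFD 4 or HFD 5 it was 1. Cyp2a5, a cytochrome P450 whose reads may be shared with its close paralog Cyp2a4, averaged 547 ± 93.5 CPM on chow and 264 ± 228 CPM on HFD (adjusted p = 0.0545). In HFD 8, 9 and 10 it was at 112, 75.2 and 41.1 CPM, but in HFD 6, which had the lowest Dbp, it was at 785 CPM, above every chow library. The list did not share 1 direction in HFD 8, 9 and 10. Alas1, at 151, 149 and 230 CPM, was inside its chow range only because of chow 3 and chow 5, at 615 and 566 CPM. The other 8 chow libraries were at 52.7 to 149 CPM. Nr1i3, at 9.64 to 13.7 CPM, was inside its chow range. Cyp7a1, at 143, 84.8 and 23.3 CPM, was above its chow maximum of 63.5 CPM in HFD 8 and HFD 9. Cyp2b10 was at 0.0664 to 0.0825 CPM, where 3 counts make 0.0248 to 0.0410 CPM, against 0.0788 to 1.79 CPM (4 to 101 counts) in chow. Por, the electron donor of the cytochromes P450, was at 169 to 318 CPM there, at 1175 CPM in HFD 6 and at 188 to 274 CPM in chow.

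Within chow, Tef, Ciart and Usp2 varied with Dbp, and the other 5 genes were not shown to. Chow 3 and chow 5 had the highest Dbp, at 66.3 and 60.0 CPM, and the lowest Arntl, at 1.08 and 1.65 CPM, where the other 8 chow libraries had 44.5 to 57.9 CPM of Dbp and 2.31 to 3.40 CPM of Arntl. They also had the highest Alas1, which encodes the rate-limiting enzyme of haem synthesis, at 615 and 566 CPM against 52.7 to 149 CPM. Chow 1 and chow 2 had the lowest Wee1, Usp2 and Bhlhe40. Across the 10 chow libraries Dbp was related to Tef (Pearson r = 0.82, permutation p = 0.00531, adjusted p = 0.0159; Spearman rho = 0.71, p = 0.0267, adjusted p = 0.0687), to Ciart (r = 0.82, permutation p = 0.00460, adjusted p = 0.0159; rho = 0.81, p = 0.00695, adjusted p = 0.0313) and to Usp2 (r = 0.80, permutation p = 0.00518, adjusted p = 0.0159; rho = 0.83, p = 0.00459, adjusted p = 0.0275). To Arntl the relation was inverse (r = −0.88, permutation p = 0.000220, adjusted p = 0.00396; rho = −0.89, p = 0.00116, adjusted p = 0.0104). Without chow 3 and chow 5, the libraries farthest from the Dbp median, r was 0.68 for Tef, 0.64 for Ciart, 0.66 for Usp2 and −0.74 for Arntl. Hlf, Nfil3, Bhlhe40, Bhlhe41 and Wee1 had Pearson r between −0.40 and 0.47 with Dbp in chow, with adjusted permutation p of at least 0.245. Their Spearman rho lay between −0.60 (Hlf, permutation p = 0.0734, adjusted p = 0.110) and 0.27 (Bhlhe40, adjusted p = 0.580). These relations were tested on log2(CPM + 1) with 100000 two-sided permutations, adjusted over 18 relations in the 2 diets. Chow 3 and chow 5 were also the most alike pair of chow libraries over all genes. The HFD libraries fall into separate clusters for Dbp, so no relation tested across them is given.

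**Figure D5:**
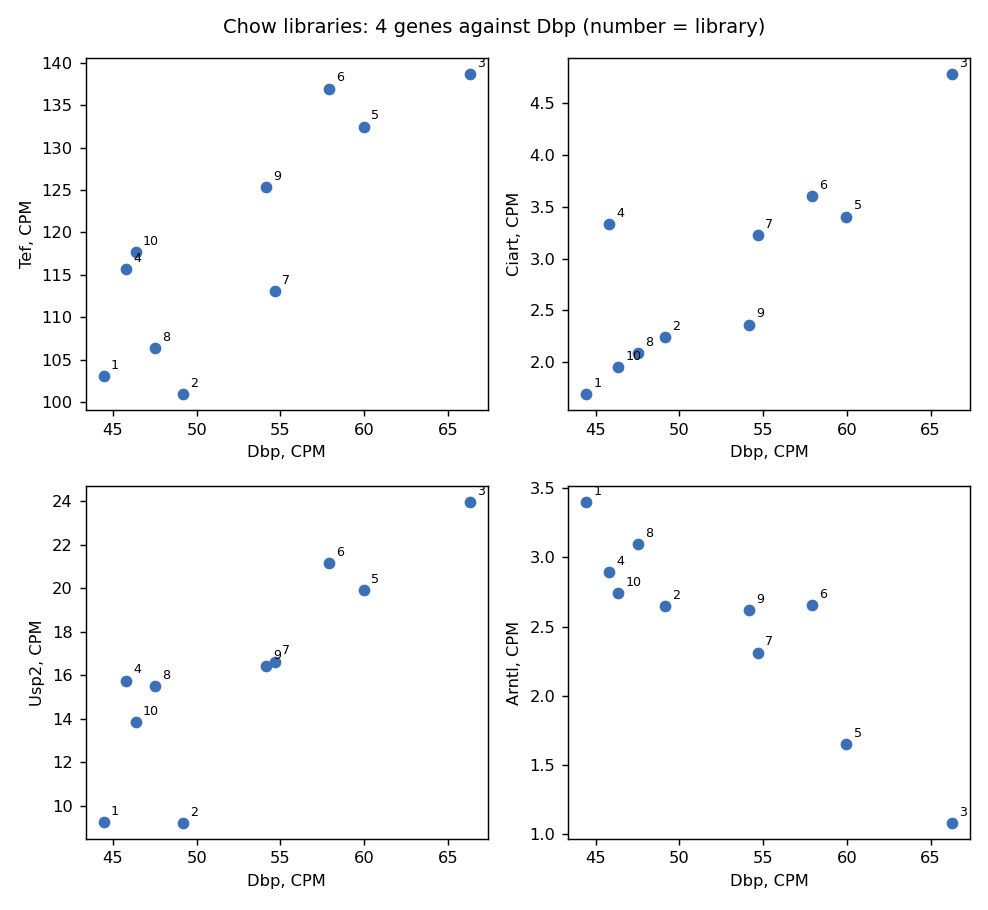
CPM of Tef, Ciart, Usp2 and Arntl against CPM of Dbp in the 10 chow libraries, each point a library with its number. Tef, Ciart and Usp2 rise with Dbp (r = 0.82, 0.82 and 0.80 on the log2 scale) and Arntl falls (r = −0.88), with chow 3 at the end of each.

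Per kilobase, Dbp was the most abundant of the 9 in chow, at 17.6 ± 2.40 CPM per kilobase, followed by Tef at 15.1 ± 1.76 and Bhlhe40 at 14.9 ± 2.13. Dbp was above Tef in all 10 chow libraries, though their ranges overlap, while Tef was above Bhlhe40 in 5 of 10. Nfil3 (7.43 ± 1.36) and Hlf (6.20 ± 1.12) came next and overlapped, with Nfil3 the higher in 7 of 10. Usp2 (3.36 ± 0.983), Wee1 (2.50 ± 0.624), Ciart (1.27 ± 0.426) and Bhlhe41 (0.989 ± 0.134) were lowest, and the last 2 did not differ beyond their spread. In the 8 HFD libraries other than HFD 1 and HFD 2 Nfil3 had the highest mean, 26.6 ± 35.7, but was above Bhlhe40 in only 4 of 8 libraries and had the lower median (13.4 against 16.6). Its place rests on HFD 6: without that library, a value added after the order was seen, Nfil3 was at 14.3 ± 8.72 and Bhlhe40 at 16.1 ± 6.01 CPM per kilobase (SD, n = 7). Dbp was at 8.13 ± 7.46 CPM per kilobase (SD, n = 8), above Tef in 4 of 8. Dispersion also differed between the diets. The coefficient of variation in chow was 11.6% for Tef, 13.7% for Dbp and 33.6% for Ciart, the most variable, and in those 8 HFD libraries 44.2%, 91.8% and 78.8%.

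The genes whose pattern was most like each of the 9 were sought among 12270 genes averaging 1 CPM or more, by Pearson r of log2(CPM + 1) centred on each diet's mean over the 18 libraries other than HFD 1 and HFD 2. For Dbp, Upp2 had an r of 0.96, and 25 genes had r over 0.9. For Bhlhe41 they were Dbp (r = 0.94) and Sucnr1 (r = 0.93), for Tef Gys2 (r = 0.93) and Wee1 (r = 0.89), and for Ciart Tef (r = 0.87) and Slc5a6 (r = 0.86). Both Wee1 and Usp2 had Per3 as the nearest gene (r = 0.91 and 0.92). Nfil3 was nearest to Slc35g1 and Fh1 (r = 0.95 each), with 51 genes over 0.9, Hlf to Aldh5a1 and Sepsecs (r = 0.95 each) and Bhlhe40 to Klf13 (r = 0.85) and Mat2a (r = 0.84). With HFD 1 and HFD 2 included several of these values dropped, for example that of Bhlhe41 with Dbp to 0.49, of Wee1 with Per3 to 0.43 and of Slc5a6 with Ciart to 0.13. The r values are a description over libraries that fall into clusters, and several are not seen within the 10 chow libraries, where r was 0.29 for Dbp with Upp2, −0.20 for Bhlhe41 with Dbp and 0.21 for Nfil3 with Fh1.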

How the data were processed

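Liver RNA was measured in 10 chow and 10 HFD libraries. The submitters' processing notes name fastp and mm10. Sources used here do not give the aligner, the counting program or the strand setting. The authors deposited raw counts per gene and FPKM. Each FPKM equals a count over its column total and a single gene length (27216 genes, relative tolerance 1e-06), and these lengths gave CPM per kilobase. Of 55401 gene identifiers 55141 matched GENCODE M21. The test was edgeR 4.0.16 (R 4.3.3) on the counts, after filterByExpr (at least 10 counts, total 15) and TMM, as a robust quasi-likelihood fit with diet alone and Benjamini-Hochberg adjustment over 14542 genes. The standard error is the size of the log2 change over the square root of F. The procedure was tested on simulated data. The most alike pair of libraries, chow 3 and chow 5, differed by more than sampling noise (chi-square per gene 10.7). Alternatives used DESeq2 1.42.0, limma 3.58.1 (voom, and log2 FPKM with 1 or 0.1 added), other scalings and filters, nuclear protein-coding genes, the replicate number as a block, and left-out libraries. Tables and figures used Python 3.11.15, scipy 1.17.1 and pandas 2.3.3.

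The 9 genes and the lists were chosen with earlier results of these data known. Named genes are the 9, Arntl, every gene called in the core clock, other output and PAR bZIP target lists, and the 2 most alike genes of each of the 9, of which 1 gene is not reported here. Sphk2 was named for its overlap with Dbp, and Per3, Alas1, Por, Cyp2a5, Nr1i3, Cyp2b10 and Cyp7a1 were singled out after their values were seen.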

Additional observations from a re-analysis of the deposited data

Results flagged for a closer look

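Among the 9 genes, 18 sets of 10 values (9 genes in each diet) were tested for a single library standing far from the rest (Dixon's gap over range, critical value 0.466), and chance marks about 1 set in 20. In HFD, Nfil3 in HFD 6 (228 CPM) stood apart, with a gap of 0.736 of the range to the next library, HFD 10. Bhlhe40 in HFD 10 (127 CPM) stood apart by 0.468 of the range, just above the critical value. No chow value of the 9 genes passed this test.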

How the results depend on the processing

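The diet calls of the 9 genes depended on the method. With all libraries 1 gene was higher and 2 lower. The count higher was 0 with limma voom, voom with sample quality weights, library totals only, no filter on low counts, log2(FPKM + 1), log2(FPKM + 0.1) and the replicate block, and ranged from 0 to 1 with 1 library left out. The count lower was 5 with limma voom and 5 with quality weights, 1 with RLE scaling, upper-quartile scaling, no filter, the filter of 1 CPM in 10 libraries, the replicate block and without HFD 6, 8, 9 and 10, 0 with library totals only, and 1 to 3 with 1 library left out. The cause was not tested. Bhlhe41 kept its call in 33 of 34 alternatives, Nfil3 in 14 and Hlf in 12. Dbp was called lower with limma voom (log2 change −2.30) and on both FPKM scales (−1.86 and −2.31). FPKM divides by the column total, in which the mitochondrial counts of HFD 1 and HFD 2 weigh in full.

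Signs turned for Usp2 with limma voom (−1.15), quality weights (−0.94, called lower at adjusted p = 0.0343, whereas it was called higher without HFD 6, 8, 9 and 10), library totals only (−0.46), log2(FPKM + 1) (−0.52), log2(FPKM + 0.1) (−0.80), the replicate block (−0.72) and without HFD 1 and HFD 2 (−0.95). They also turned for Bhlhe40 on both FPKM scales (−0.33 and −0.43) and without HFD 10 (−0.030, in a range of −0.030 to 0.17 with 1 library left out), and without HFD 6, 8, 9 and 10 for Nfil3 (−0.20) and Ciart (0.42). The median of all genes moved from 0.02 to 0.20 with DESeq2, 0.13 with no filter, −0.14 with log2(FPKM + 1) and −0.39 with log2(FPKM + 0.1). In chow, r with Dbp turned for Hlf with library totals (0.15), for Nfil3 without chow 3 and 5 (0.44) and for Bhlhe41 in both (0.13 and 0.11).

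Over all genes, 1886 were higher and 1025 lower, against 3046 higher with DESeq2, 1253 higher with limma voom, 2728 lower with quality weights, 507 and 93 with library totals only, 430 and 287 with log2(FPKM + 1), 290 and 208 with log2(FPKM + 0.1), 913 and 661 with the replicate block, and 1539 lower without HFD 1 and HFD 2. Replicate numbers did not pair the libraries: same-numbered pairs correlated at −0.11 to 0.13, with 2 of 10 over 0.1, and 2 chow libraries were best matched by their own number. With few nuclear counts in HFD 1 and HFD 2, low genes such as Bhlhe41 and Wee1 rest there on 0 to 26 counts.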

Other observations

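HFD 6 differed from HFD 8, 9 and 10 in some rhythmic genes. Insig2, which holds back sterol regulatory proteins, was at 587 CPM in HFD 6, 186 to 225 CPM in HFD 8, 9 and 10 and 88.5 to 161 CPM in chow. Nampt, an enzyme of NAD synthesis, was at 193 CPM in HFD 6, 27.4 to 38.6 CPM in HFD 8, 9 and 10 and 30.3 to 52.0 CPM in chow. Per1 was at 33.5 CPM in HFD 6, 3.22 to 14.4 CPM in HFD 8, 9 and 10 and 4.47 to 11.9 CPM in chow. The regulator of G protein signalling Rgs16 was low in all 4, at 2.30 to 14.7 CPM against 19.0 to 70.4 CPM in chow, and highest in HFD 3 at 104 CPM. In the mitochondria-rich libraries HFD 1 and HFD 2, Rora was at 197 and 80.3 CPM against 12.6 to 37.6 CPM in chow, and Per3 at 62.4 and 4.89 CPM. B cell markers summed to 863 CPM in HFD 8, against 5.42 to 54.1 CPM in chow. These genes were picked after their values were seen.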
